A study of Mus musculus with 9 samples.

Results

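Complex I, the NADH dehydrogenase of the mitochondrial respiratory chain, was followed through the genes whose symbols begin with Ndufa, Ndufb, Ndufc, Ndufs, Ndufv, Ndufab or Ndufaf. Each gene was read from the probe set that names it alone and that had the highest mean signal over the 9 arrays. By this rule 44 of the 18193 genes with a probe set belonged to the set, 36 of them named as subunits and 8 as Ndufaf assembly factors. Of these, 43 passed the filter on low signals and were tested, which left out only Ndufa4l2. The probe sets of Ndufs6 and Ndufa11 were shared with other genes and were not used.

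The study profiled stomach cells of C57BL/6 mice on 9 Affymetrix arrays, 1 array per sample and 3 per group. The parietal group held gastric parietal cells, the acid-secreting cells of the corpus. Tomato is a red fluorescent protein, and Mist1 a transcription factor found in cells that secrete enzymes. Both Mist1+ groups are labelled Mist1+ Tomato+ and were sorted by flow cytometry: the isthmus group came from the corpus after Lgr5+ cells had been ablated, and the chief group came from the corpus with no ablation named. The driver of the Tomato reporter, the means of ablation, the way parietal cells were collected and the age of the mice were not stated in the labels used here. Since the labels name no separate animals, the p-values reflect the spread among these samples alone, and that spread may be technical.

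Complex I takes electrons from NADH and passes them to ubiquinone while it pumps protons out of the mitochondrial matrix. It is built from modules: the N module binds NADH, the Q module reduces ubiquinone, and the membrane arm pumps protons. A small core of subunits carries out catalysis, and the many accessory subunits surround it. Parietal cells are known for a very high content of mitochondria, which supply the ATP that the gastric proton pump uses.

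The median signal of an array was 55.7 to 58.1 on parietal, 60.5 to 79.9 on isthmus and 83.3 to 104 on chief arrays, with no overlap of groups. On each array 1.99% to 3.91% of the values stood at the floor of 0. Parietal markers had a summed log2 signal of 15.73 to 15.96 on parietal arrays, 13.40 to 14.35 on isthmus arrays and 13.81 to 14.70 on chief arrays, over 6 of 6 listed genes. Their signal was thus present in both Mist1+ groups, where Atp4b, a subunit of the proton pump, lay between 11.97 and 12.80. Slc26a7, an anion exchanger of parietal cells, was at or below the array median on all Mist1+ arrays. Markers of chief cells reached 14.60 to 15.01 on parietal, 14.91 to 15.32 on isthmus and 16.32 to 16.72 on chief arrays, also over 6 of 6 genes. The 2 markers of dividing cells were at 8.24 to 8.40 on parietal, 13.06 to 13.43 on isthmus and 12.39 to 13.16 on chief arrays. Endocrine markers stood at 7.82 to 9.20 on parietal, 14.00 to 15.12 on isthmus and 14.95 to 15.91 on chief arrays, over 5 of 5 genes. Leukocyte markers stood at 6.11 to 6.89 on parietal, 6.68 to 8.20 on isthmus and 9.27 to 10.14 on chief arrays. Of the leukocyte genes only Cd74 passed the filter, with 10.05, 9.13 and 8.46 on chief arrays. Ptprc had 8.80 on chief replicate 3, while Cd52 had a mean of 2.57 on chief and 4.64 on parietal arrays. Pit cell markers stood at 15.67 to 15.85 on parietal, 16.04 to 16.30 on isthmus and 16.67 to 16.98 on chief arrays, over 5 of 5 genes. Tff2, the neck cell marker with a probe set, stood at 11.41 to 12.52 on parietal, 13.32 to 13.53 on isthmus and 13.47 to 14.29 on chief arrays. Blood markers stood at 11.32 to 11.49 on parietal, 11.63 to 11.71 on isthmus and 11.93 to 14.46 on chief arrays, with the highest value on chief replicate 3. On parietal and isthmus arrays nearly all of that signal was from Hba-a2 (11.29 to 11.68). Hbb-b2 had 9.84, 9.56 and 14.11 on chief arrays and 5.84 or less on the others. Fibroblast markers stood at 7.03 to 8.32 on parietal and 5.94 to 7.22 on isthmus arrays. On chief arrays they stood at 7.23 to 14.65, chief replicate 3 having the highest value. Bhlha15, the gene of Mist1, had 6.82, 4.21 and 0 on parietal arrays, against 5.03, 1.34 and 7.36 on isthmus and 10.75, 10.05 and 9.20 on chief arrays. All isthmus arrays lay below all chief arrays, although both groups carry the Mist1+ label, by a difference that missed the threshold (-5.42, limma adjusted p = 0.123), and isthmus and parietal arrays overlapped (adjusted p = 0.738). Xist was at 13.13 on parietal replicate 1 and at 11.72 on chief replicate 3, and at 5.93 or less on the other arrays. The called counts of subunit and assembly factor genes, the subunit medians and the calls of members were therefore also computed without those arrays. Overlap counts, modules, probe set brightness and the other gene lists are given with all arrays only. The part of other cell types in the differences below was not tested.

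Complex I subunit genes were higher in parietal cells than in either Mist1+ group, and no subunit gene was called lower. Against chief cells 29 of 35 tested subunit genes rose and 0 fell, where 10.7% of all 11006 tested genes rose and 13.5% fell (limma, adjusted p under 0.05). Against isthmus cells 32 of 35 rose and 0 fell, where 12.2% of all tested genes rose and 15.4% fell. The 35 genes, taken by symbol, include Ndufa4, which is now assigned to cytochrome c oxidase (complex IV) and rose in both comparisons. At an unadjusted p under 0.05 the counts were 31 higher and 0 lower against chief cells, and 32 higher and 0 lower against isthmus cells. Of all 11006 tested genes, 1779 were higher and 2199 lower against chief cells at that threshold, and 1901 and 2356 against isthmus cells. The median log2 difference of the 35 genes was 0.81 against chief cells, a 1.76-fold median, beside -0.10 over all tested genes. Against isthmus cells it was 1.07, a 2.10-fold median, beside -0.09 over all tested genes. Without chief replicate 3 and parietal replicate 1, 20 rose against chief cells, where 643 of 11006 tested genes did. In that fit 32 rose against isthmus cells, for which the count over all tested genes is not given here. Both comparisons use the same parietal arrays. Differences below are on the log2 scale unless a fold is named. In bulk samples, fewer cells of a type and less RNA per cell cannot be told apart.

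The median log2 signal of the 35 subunit genes was 13.48, 13.48 and 13.52 on the parietal arrays, against 12.38, 12.46 and 12.66 on the isthmus arrays and 12.65, 12.75 and 12.50 on the chief arrays. The parietal arrays lay above all others, and the isthmus and chief arrays overlapped. Over all tested genes the same median was 9.14 to 9.15 on parietal, 9.33 to 9.38 on isthmus and 9.27 to 9.32 on chief arrays, so it was lowest where the subunit median was highest. Gene by gene, all 3 parietal arrays exceeded all 3 chief arrays for 30 of 35 subunit genes and lay below them for 0, where 18.7% of all tested genes were above and 21.2% below. They exceeded all 3 isthmus arrays for 32 of 35 and lay below them for 0, where 20.3% of tested genes were above and 24.0% below. Subunit genes are bright on these arrays. Of the 1785 tested genes at least as bright as the dimmest subunit gene called against isthmus cells, 432 rose and 305 fell against chief cells, with a median difference of 0.12. Against isthmus cells 518 of them rose and 287 fell, with a median of 0.13.

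**Figure D1:**
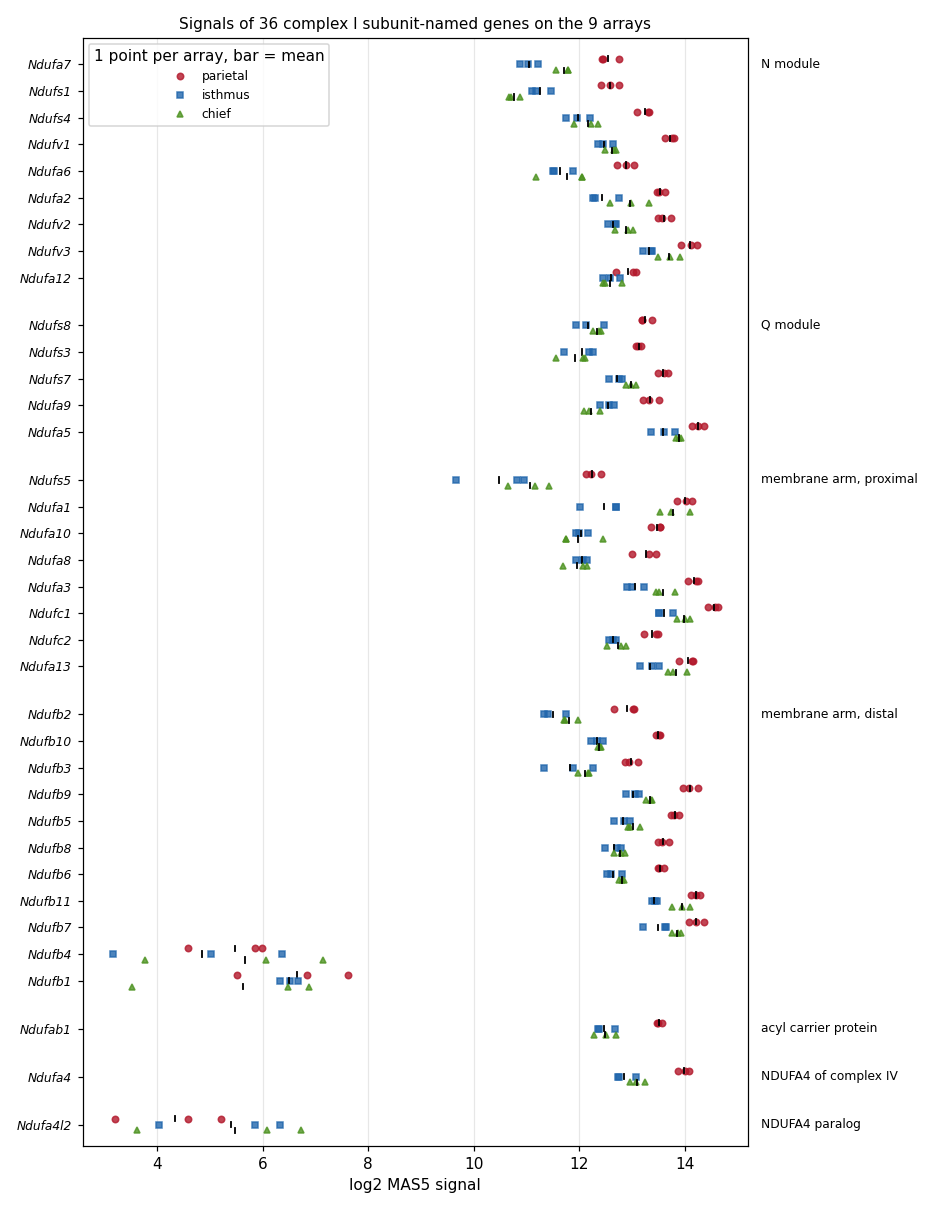
Log2 MAS5 signal (x axis) of the 36 subunit-named genes (rows, grouped by module) on the 9 arrays, with 1 point per array and a bar at each group's mean. Parietal arrays (circles) lie to the right of isthmus (squares) and chief arrays (triangles) for most genes, and Ndufb1, Ndufb4 and Ndufa4l2 are dim on all arrays.

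By module, the N module rose for 8 of 9 genes against chief cells and for 8 of 9 against isthmus cells, with median log2 differences of 0.84 and 1.25. All 5 Q module genes rose in both comparisons, with medians of 0.91 and 0.88. In the proximal membrane arm 6 of 8 genes rose against chief cells and 8 of 8 against isthmus cells, with medians of 0.61 and 1.16. In the distal membrane arm 8 of 11 rose against chief cells and 9 of 11 against isthmus cells, with medians of 0.79 and 0.92. No module held a gene that fell in either comparison, also at an unadjusted p under 0.05. Differences between modules were not tested.

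**Figure D2:**
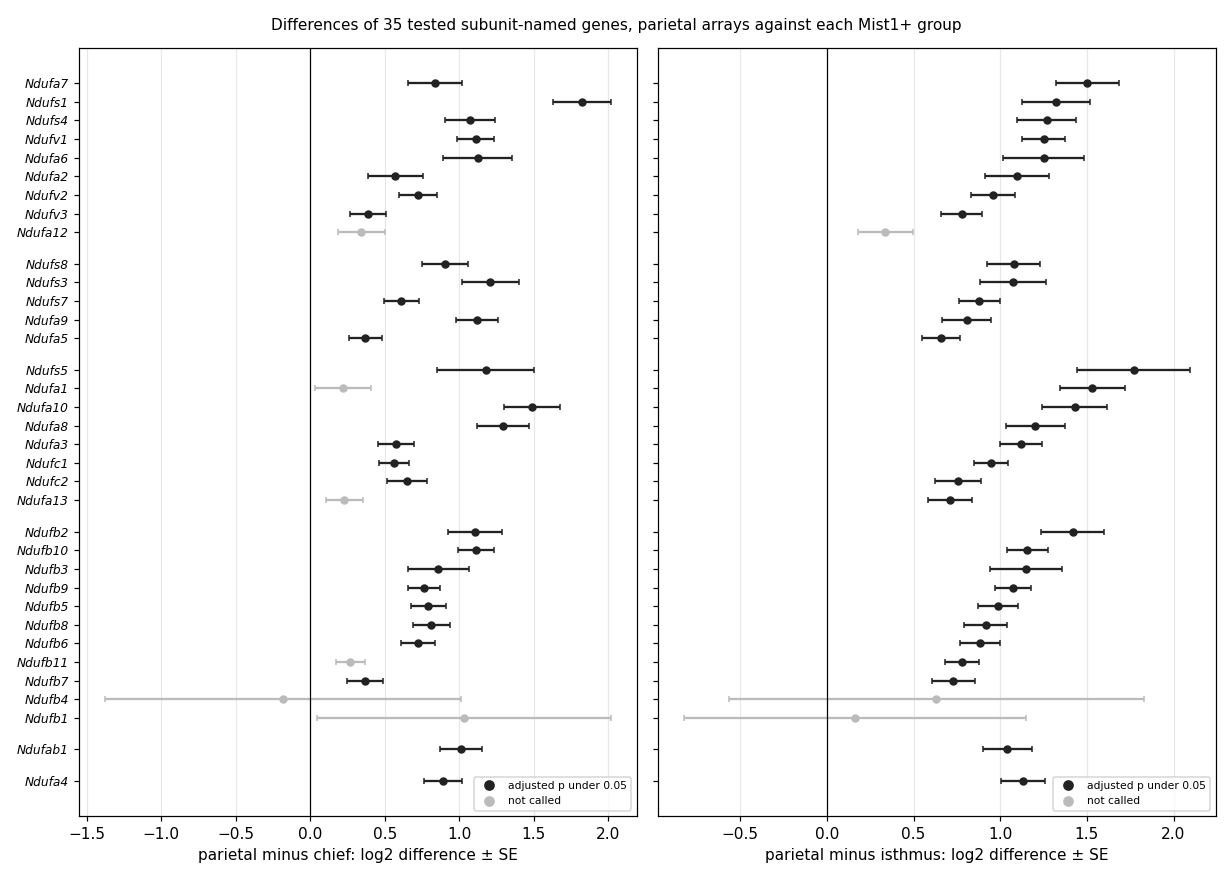
Log2 difference ± SE (x axes) of the 35 tested subunit genes, parietal minus chief on the left and parietal minus isthmus on the right, in rows grouped by module from N at the top to the distal membrane arm, then Ndufab1 and Ndufa4. Filled dark points passed an adjusted p of 0.05 (29 on the left, 32 on the right), and pale points did not.

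The promoters of the members were searched for motifs of factors known for regulating respiratory genes, because the members moved together. Windows of 250 bases before each start, from RefSeq (mouse build GRCm38.p6), matched 39 of 44 members, and motifs were sought on both strands. The ESRR motif AAGGTCA stood in 3 member promoters (7.69%), those of Ndufb2, Ndufb4 and Ndufs5, beside 4.70% of the promoters of 27025 genes. The GC box GGGCGG stood in 19 (48.7%) beside 35.4%, and the ETS motif CCGGAAG in 5 (12.8%) beside 7.83%. The NRF1 motif GCATGCGC, the core of a longer palindrome, stood in 3 (7.69%), those of Ndufa6, Ndufa8 and Ndufaf4, beside 2.56%. The YY1 motif AAGATGGC stood in 0 member promoters (0.00%) beside 1.83%. The median GC content was 58.4% in member windows and 52.4% over all genes, and the median CpG count was 17 and 6 per window. Motif shares were not compared at matched composition. A match is a run of letters and not a site shown to be used.

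Promoter windows of 4 members that the results below turn on are shown 5′ to 3′ on the strand of the gene, with matches to the motifs in capitals: Ndufa10 and Ndufs5, among the largest differences, Ndufb2, with an ESRR match, and Ndufa1, the gene that differed most between the Mist1+ groups. The windows lie at chr1:92473759-92474008 (minus strand, Ndufa10), chr4:123718187-123718436 (minus strand, Ndufs5), chr6:39592315-39592564 (plus strand, Ndufb2) and chrX:37191239-37191488 (minus strand, Ndufa1). The capitals are GC boxes, read on the opposite strand, in Ndufa10 and Ndufa1, an ESRR match on the opposite strand in Ndufs5 and an ESRR match on the shown strand in Ndufb2.
Ndufa10: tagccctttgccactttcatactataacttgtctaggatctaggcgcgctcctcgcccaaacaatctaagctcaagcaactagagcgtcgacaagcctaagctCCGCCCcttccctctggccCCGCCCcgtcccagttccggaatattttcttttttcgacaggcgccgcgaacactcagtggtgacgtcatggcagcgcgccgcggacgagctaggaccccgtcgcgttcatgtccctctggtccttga
Ndufs5: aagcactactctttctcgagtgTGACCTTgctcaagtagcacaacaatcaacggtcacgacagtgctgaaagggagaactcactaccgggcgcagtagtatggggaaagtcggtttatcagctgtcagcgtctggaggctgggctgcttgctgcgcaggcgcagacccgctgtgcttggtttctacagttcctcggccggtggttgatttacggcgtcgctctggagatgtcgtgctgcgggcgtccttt
Ndufb2: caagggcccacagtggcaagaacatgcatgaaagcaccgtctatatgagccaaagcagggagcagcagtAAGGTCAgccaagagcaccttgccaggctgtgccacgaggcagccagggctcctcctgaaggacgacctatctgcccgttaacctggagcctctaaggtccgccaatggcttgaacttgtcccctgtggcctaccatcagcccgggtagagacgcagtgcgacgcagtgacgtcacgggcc
Ndufa1: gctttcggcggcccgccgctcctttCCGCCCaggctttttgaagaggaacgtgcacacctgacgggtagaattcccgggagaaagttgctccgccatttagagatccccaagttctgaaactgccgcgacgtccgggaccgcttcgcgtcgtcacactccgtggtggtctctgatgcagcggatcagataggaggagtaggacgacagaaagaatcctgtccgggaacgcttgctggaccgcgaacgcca

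In the N module, Ndufs1, the largest subunit and a carrier of iron-sulfur clusters, showed the largest difference against chief cells of all members tested. Its log2 signal was 12.41, 12.74 and 12.58 on parietal arrays, against 11.47, 11.18 and 11.11 on isthmus arrays and 10.71, 10.88 and 10.67 on chief arrays. The 3 groups did not overlap. It was 3.54-fold higher in parietal than in chief cells (log2 difference 1.82, SE 0.20, limma adjusted p = 4.21e-05). Against isthmus cells it was 2.50-fold higher (adjusted p = 0.00034). Ndufv1, which binds NADH and its flavin cofactor, had 13.75, 13.63 and 13.79 on parietal arrays, against 12.44, 12.35 and 12.63 on isthmus and 12.70, 12.65 and 12.49 on chief arrays. Every parietal array was above the rest, and the log2 difference was 1.11 against chief cells (adjusted p = 5.23e-05) and 1.25 against isthmus cells (adjusted p = 2.29e-05).

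Ndufv2, the core partner of Ndufv1, had 13.57, 13.48 and 13.74 on parietal arrays, against 12.55, 12.68 and 12.69 on isthmus and 12.92, 13.02 and 12.68 on chief arrays. Parietal arrays again lay apart, by 0.72 against chief cells (adjusted p = 0.00127) and 0.96 against isthmus cells (adjusted p = 0.000157). Ndufa7, an accessory subunit, had 12.75, 12.43 and 12.45 on parietal arrays, against 11.21, 11.03 and 10.88 on isthmus and 11.78, 11.56 and 11.78 on chief arrays. The 3 groups did not overlap, and the difference was 1.50 against isthmus cells (adjusted p = 9.18e-05) and 0.84 against chief cells (adjusted p = 0.00552). Ndufa6, an accessory subunit that binds the acyl carrier protein, had 12.88, 12.72 and 13.04 on parietal arrays, against 11.51, 11.88 and 11.50 on isthmus and 12.04, 12.05 and 11.18 on chief arrays. It rose by 1.12 against chief cells (adjusted p = 0.00385) and by 1.25 against isthmus cells (adjusted p = 0.00164).

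Ndufs4, an accessory subunit whose loss in mice causes a brain disease like Leigh syndrome, rose by 1.07 against chief and 1.27 against isthmus cells. Ndufa2, with 0.57 and 1.10, and Ndufv3, with 0.39 and 0.78, also rose in both comparisons. Of the N module only Ndufa12, an accessory subunit at the junction with the Q module, was called in neither comparison. Its log2 signal was 12.69, 13.08 and 13.01 on parietal arrays, against 12.57, 12.44 and 12.76 on isthmus and 12.49, 12.81 and 12.45 on chief arrays. Parietal arrays overlapped with both other groups, with a difference of 0.34 in each comparison (adjusted p = 0.133 against chief and 0.132 against isthmus cells). The other 2 probe sets of Ndufa12 of like brightness gave 0.94 and 0.93 against chief and 1.04 and 0.93 against isthmus cells, so this result rests on the probe set. Against chief cells, the calls of Ndufa2 and Ndufv3 ended without any 1 of several arrays, at adjusted p-values of up to 0.147 for Ndufa2 (without chief replicate 3) and 0.127 for Ndufv3 (without parietal replicate 3).

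In the Q module, Ndufs3, a core subunit beside the quinone site, had 13.08, 13.11 and 13.17 on parietal arrays, against 11.70, 12.25 and 12.19 on isthmus and 12.11, 12.07 and 11.56 on chief arrays. It rose by 1.21 against chief cells (limma adjusted p = 0.000663) and by 1.07 against isthmus cells (adjusted p = 0.00121). Ndufs7, which carries the last iron-sulfur cluster before ubiquinone, had 13.68, 13.48 and 13.60 on parietal arrays, against 12.56, 12.81 and 12.75 on isthmus and 13.08, 12.97 and 12.88 on chief arrays. None of the 3 groups overlapped, and the rise was 0.61 against chief cells (adjusted p = 0.00242) and 0.88 against isthmus cells (adjusted p = 0.000166). Ndufs8, another cluster-bearing core subunit, had 13.18, 13.19 and 13.37 on parietal arrays, against 12.12, 12.46 and 11.93 on isthmus and 12.25, 12.40 and 12.37 on chief arrays. Its parietal arrays were above all others, by 0.91 against chief cells (adjusted p = 0.00106) and 1.08 against isthmus cells (adjusted p = 0.000274).

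The accessory subunit Ndufa9, which binds a pyridine nucleotide near the quinone site, rose by 1.12 against chief and 0.81 against isthmus cells. Ndufa5 rose less, by 0.37 and 0.66, and its call against chief cells ended without parietal replicate 1 or 3 or chief replicate 2 or 3 (adjusted p of up to 0.11). Taking the 6 core subunits with a probe set, 6 of 6 rose in both comparisons, with medians of 1.01 and 1.07.

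In the proximal membrane arm, Ndufa10, an accessory subunit related to nucleoside kinases, had 13.52, 13.35 and 13.52 on parietal arrays, against 11.93, 12.00 and 12.17 on isthmus and 12.44, 11.74 and 11.75 on chief arrays. Parietal arrays lay more than 0.9 log2 units above every other array. It was 2.80-fold higher than in chief cells (adjusted p = 0.000128) and 2.69-fold higher than in isthmus cells (adjusted p = 0.000147). Ndufa8, a subunit of the intermembrane space side, had 12.99, 13.45 and 13.32 on parietal arrays, against 12.07, 12.15 and 11.93 on isthmus and 11.68, 12.14 and 12.06 on chief arrays. It was 2.45-fold higher than in chief cells (adjusted p = 0.0002) and 2.30-fold higher than in isthmus cells (adjusted p = 0.000273).

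Ndufs5, also on the intermembrane space side, had 12.21, 12.12 and 12.41 on parietal arrays, against 9.67, 10.94 and 10.82 on isthmus and 11.42, 11.15 and 10.64 on chief arrays. Its rise of 3.41-fold over isthmus cells was the largest of any subunit in that comparison (adjusted p = 0.00153), and isthmus replicate 1 was the lowest array. Without that array the log2 difference was 1.37, against 1.77 with it. Over chief cells the rise was 2.26-fold (adjusted p = 0.0196), a call that ended without parietal replicate 3 (adjusted p = 0.0734) or chief replicate 3 (adjusted p = 0.0728). Ndufc1, with 0.56 and 0.95, and Ndufc2, with 0.65 and 0.76, rose against chief and isthmus cells. Ndufa13, which is also known as a cell death regulator, had 14.13, 13.88 and 14.15 on parietal arrays, against 13.14, 13.38 and 13.51 on isthmus and 14.03, 13.68 and 13.77 on chief arrays. It rose against isthmus cells (0.71, adjusted p = 0.00111), and its difference of 0.23 against chief cells missed the threshold (adjusted p = 0.215).

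In the distal membrane arm, where accessory subunits surround proton-pumping subunits encoded by mitochondrial DNA, Ndufb2 had 13.04, 12.66 and 13.02 on parietal arrays, against 11.33, 11.40 and 11.74 on isthmus and 11.97, 11.71 and 11.73 on chief arrays. It rose by 1.10 against chief cells (adjusted p = 0.000844) and by 1.42 against isthmus cells (adjusted p = 0.000128). Ndufb10, a subunit of the intermembrane space side, had 13.45, 13.50 and 13.52 on parietal arrays, against 12.34, 12.21 and 12.45 on isthmus and 12.40, 12.38 and 12.35 on chief arrays. It rose by 1.11 against chief cells (adjusted p = 4.6e-05) and by 1.16 against isthmus cells (adjusted p = 3.28e-05). Ndufb3, Ndufb5, Ndufb6, Ndufb8 and Ndufb9 rose by 0.72 to 0.86 against chief cells and by 0.88 to 1.15 against isthmus cells. Ndufb7 rose by 0.37 against chief and 0.73 against isthmus cells, and its call against chief cells ended without parietal replicate 1 or 3 or any 1 chief array (adjusted p of up to 0.163).

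The dimmest pair of genes in the arm gave no usable comparison. Ndufb4 had 4.58, 5.98 and 5.86 on parietal arrays, against 6.36, 3.16 and 5.01 on isthmus and 3.76, 7.14 and 6.07 on chief arrays. It was above the array median on 3 of 9 arrays, all groups overlapped, and its difference of -0.18 against chief cells was the only negative one among the subunits (adjusted p = 0.932). Ndufb1 had 6.84, 5.51 and 7.62 on parietal arrays, against 6.66, 6.32 and 6.51 on isthmus and 6.47, 3.53 and 6.87 on chief arrays. It also overlapped in all groups, with differences of 1.03 against chief cells (adjusted p = 0.489) and 0.16 against isthmus cells (adjusted p = 0.925).

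Of the members outside the modules, Ndufab1, the mitochondrial acyl carrier protein that complex I also contains, had 13.48, 13.47 and 13.56 on parietal arrays, against 12.35, 12.37 and 12.67 on isthmus and 12.28, 12.69 and 12.50 on chief arrays. It was 2.02-fold higher than in chief cells (adjusted p = 0.000286) and 2.06-fold higher than in isthmus cells (adjusted p = 0.000193). Ndufa4, named as a complex I subunit but now assigned to cytochrome c oxidase (complex IV), had 14.00, 13.87 and 14.08 on parietal arrays, against 12.74, 12.73 and 13.08 on isthmus and 13.08, 13.24 and 12.96 on chief arrays. It rose by 0.89 against chief cells (adjusted p = 0.000304) and by 1.13 against isthmus cells (adjusted p = 4.68e-05). Its paralog Ndufa4l2, known as a gene induced by low oxygen, was not tested. It had 3.20, 5.20 and 4.59 on parietal arrays, against 4.03, 6.32 and 5.85 on isthmus and 3.61, 6.73 and 6.08 on chief arrays, with the groups overlapping.

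The size of the differences from parietal cells varied with the brightness of the probe set. Over 33 subunit genes (leaving out the dim Ndufb1 and Ndufb4), the difference between parietal and chief cells correlated with the mean log2 signal on the isthmus arrays, which that difference does not use, at r = -0.70 (Spearman -0.74). The difference between parietal and isthmus cells correlated with the signal on the chief arrays at r = -0.57 (Spearman -0.62). The points are genes measured on the same arrays, so these values describe the pattern and carry no p. The 11 brightest genes had a median difference of 0.56 against chief cells, and the 11 dimmest had 1.12. Against isthmus cells the medians were 0.95 and 1.27. Between isthmus and chief cells the brightest genes had the larger difference, with a median of -0.38 against -0.17 for the dimmest (r = -0.31, Spearman -0.40, with the signal on the parietal arrays).

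Probe sets of a single gene were also compared, a comparison chosen after the values were seen. Brightness here was the mean over all 9 arrays, which include the arrays of the difference. For 18 subunit genes with more than 1 probe set above the array median on all 9 arrays, the dimmest probe set gave the larger difference in 17 of 18 against chief cells and in 17 of 18 against isthmus cells. The median was 1.05 for the dimmest and 0.72 for the brightest against chief cells, and 1.30 and 0.97 against isthmus cells. Between isthmus and chief cells the dimmest probe set gave the larger size in 6 of 18 genes, with medians of -0.17 for the dimmest and -0.25 for the brightest. Ndufb7 rose by 0.37 on its brightest probe set (mean signal 13.85) and showed 1.03 on its dimmest (11.77), and Ndufc1 showed 0.56 and 1.38. Ndufb11, whose difference of 0.27 on its brightest probe set was not called against chief cells (adjusted p = 0.0641), showed 0.92 on its dimmest. The exceptions were Ndufb2 against chief cells and Ndufv1 against isthmus cells. The direction rarely changed: of 44 further probe sets of 22 members, 41 were higher in parietal than in chief cells and 42 higher than in isthmus cells.

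**Figure D3:**
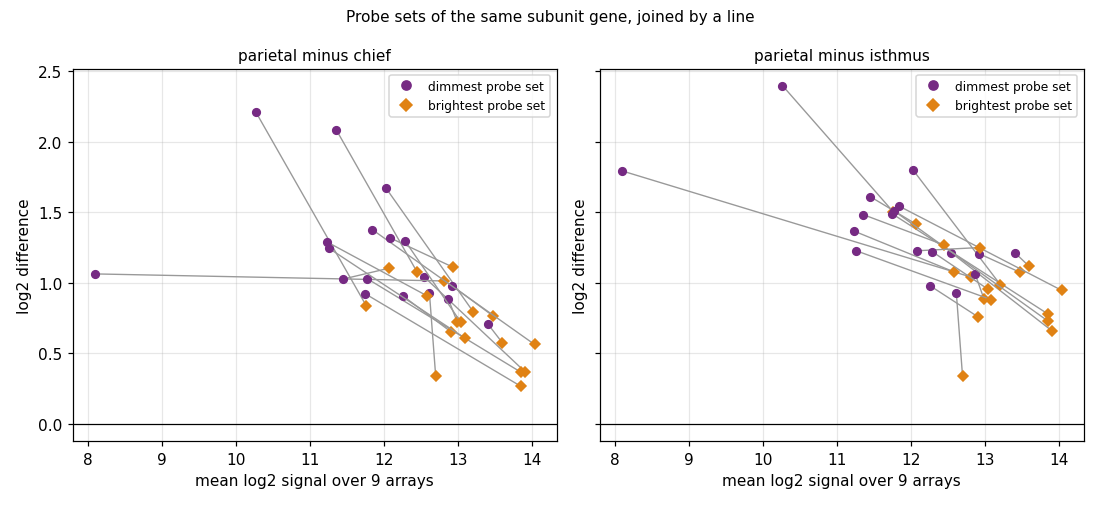
Log2 difference (y axes) against the mean log2 signal over 9 arrays (x axes) for the dimmest (circles) and the brightest (diamonds) probe set of 18 subunit genes, with a line joining the probe sets of each gene. In 17 of 18 genes of each panel the dimmest probe set gave the larger difference.

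Few subunit genes were called between the Mist1+ groups. Isthmus cells had 3 of 35 subunit genes lower than chief cells, Ndufa1, Ndufa3 and Ndufb11, where 1.26% of all tested genes were lower, and 0 higher, where 0.391% were (limma, adjusted p under 0.05). At an unadjusted p under 0.05 there were 12 lower and 2 higher, where 1003 of 11006 tested genes were lower and 911 higher. Of the 1785 tested genes at least as bright as the dimmest subunit gene called against isthmus cells, 82 were called lower and 12 higher, 339 were lower at an unadjusted p under 0.05, and 338 were lower with no overlap of arrays. The median log2 difference was -0.23, beside 0.03 over all tested genes, and 28 of 35 differences were negative. All 3 isthmus arrays lay below all 3 chief arrays for 11 of 35 subunit genes, where 10.5% of tested genes did, and above them for 1 (Ndufs1), where 10.6% did. By module the medians were -0.19 (N), -0.17 (Q), -0.43 (proximal membrane arm) and -0.29 (distal membrane arm).

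Ndufa1, a small membrane subunit encoded on the X chromosome, had 12.01, 12.70 and 12.69 on isthmus arrays and 14.09, 13.52 and 13.73 on chief arrays. The groups were 0.8 log2 units apart at their nearest arrays, and the isthmus mean was 12.47 ± 0.40 against 13.78 ± 0.29 in chief cells (SD, n = 3 each). It fell by 1.31 on the log2 scale, to 0.402 of the chief level (SE 0.19, limma adjusted p = 0.00608). On parietal arrays it had 14.01, 13.85 and 14.13, which overlapped with chief cells (difference 0.22, adjusted p = 0.44) and was 2.89-fold above isthmus cells (adjusted p = 8.99e-05). Ndufa1 was read from 1 probe set. Its call held without any single array and ended only in a fit with no intensity trend (adjusted p = 0.125).

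Ndufa3, another membrane subunit, had 12.91, 13.00 and 13.23 on isthmus arrays and 13.81, 13.50 and 13.45 on chief arrays, with no overlap (-0.54, adjusted p = 0.0454). Parietal arrays had 14.20, 14.05 and 14.24, above both groups, by 0.58 over chief cells (adjusted p = 0.00417) and 1.12 over isthmus cells (adjusted p = 4.16e-05). Ndufb11, a distal subunit encoded on the X chromosome, had 13.37, 13.43 and 13.46 on isthmus arrays and 14.10, 13.76 and 13.94 on chief arrays (-0.51, adjusted p = 0.0271). Its 3 probe sets gave -0.51, -0.51 and -0.57. On parietal arrays it had 14.20, 14.12 and 14.28, which was 1.72-fold above isthmus cells (adjusted p = 0.000108). The call of Ndufa3 between the Mist1+ groups ended in 15 of 20 alternatives, including the removal of any 1 array other than isthmus replicate 3 (adjusted p of up to 0.171). That of Ndufb11 ended in 8 of 20, among them without isthmus replicate 1 (0.103) or 2 (0.0742) and without chief replicate 1 (0.101) or 3 (0.0597). Of 325 tested X-linked genes, 10 were lower and 1 higher in isthmus cells, with a median of 0.01. Ndufs1 moved the other way, by 0.50 with no overlap, and was not called (adjusted p = 0.218).

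**Figure D4:**
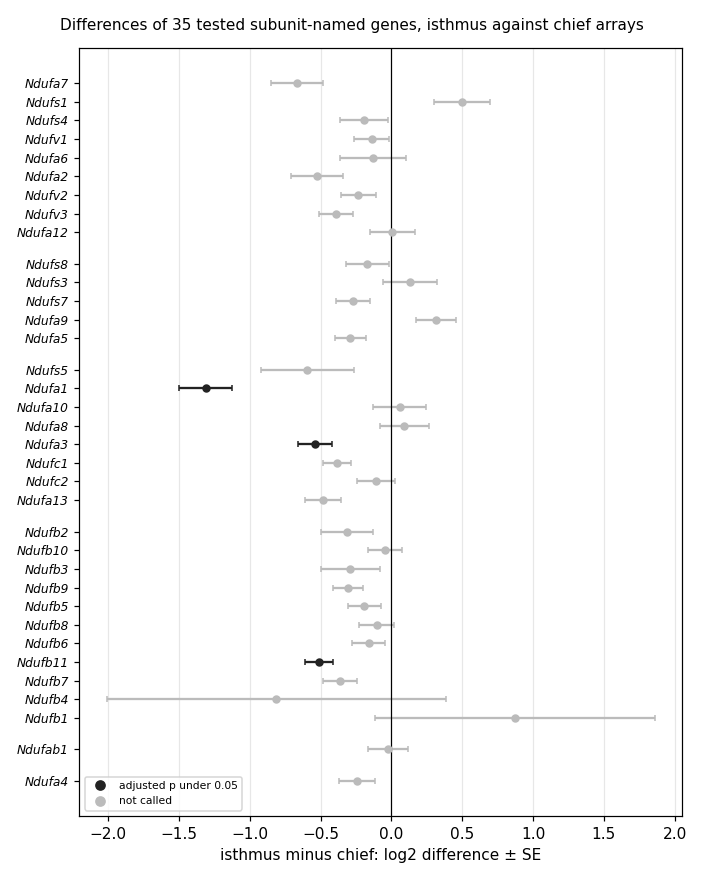
Log2 difference ± SE (x axis), isthmus minus chief, of the 35 tested subunit genes in rows grouped by module. Most points lie left of 0, and the 3 dark points (Ndufa1, Ndufa3 and Ndufb11) passed an adjusted p of 0.05.

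ND5, a proton-pumping subunit encoded by mitochondrial DNA, was not called higher than in chief cells. It had 14.08, 14.35 and 14.46 on parietal arrays, against 13.72, 13.87 and 13.87 on isthmus and 14.38, 14.20 and 14.32 on chief arrays. Parietal and chief arrays overlapped (difference -0.00, adjusted p = 0.984), and isthmus arrays were below both, by 0.48 against parietal cells (adjusted p = 0.00363) and with -0.48 against chief cells (adjusted p = 0.0375). The other subunits encoded there were not analysed here.

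Assembly factors are not part of the finished complex but build it. The 8 Ndufaf genes were all higher on average in parietal cells, with medians of 0.94 against chief and 1.06 against isthmus cells. Of these, 2 of 8 rose against chief cells and 3 of 8 against isthmus cells, where 10.7% and 12.2% of all tested genes did (limma, adjusted p under 0.05), and 0 were called lower. At an unadjusted p under 0.05, 5 rose against chief and 7 against isthmus cells, where 1779 and 1901 of 11006 tested genes did. Parietal arrays lay above all chief arrays for 5 of 8 and above all isthmus arrays for 7 of 8, where 18.7% and 20.3% of tested genes did. Between isthmus and chief cells 0 of 8 were called, 0 also at an unadjusted p under 0.05, with a median of 0.05. Their spread between replicates was larger than that of most subunit genes, with SEs of 0.23 to 0.71.

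Ndufaf5, which hydroxylates an arginine of Ndufs7 in human cells, had 10.91, 11.24 and 10.91 on parietal arrays, against 9.70, 10.37 and 9.96 on isthmus and 8.41, 9.68 and 10.06 on chief arrays. It was 3.11-fold above chief cells (adjusted p = 0.0113), where chief replicate 1 was lowest, and its difference of 1.01 against isthmus cells missed the threshold (adjusted p = 0.0851). Ndufaf8, known in human cells to stabilise Ndufaf5, had 12.40, 12.69 and 12.10 on parietal arrays, against 11.32, 11.03 and 11.57 on isthmus and 12.76, 11.41 and 11.64 on chief arrays. Chief replicate 1 was the highest of all 9 arrays, and the gene rose against isthmus cells (1.09, adjusted p = 0.0189) but was not called against chief cells (0.46, adjusted p = 0.312). The rise against isthmus cells was lost without parietal replicate 2 (adjusted p = 0.0767) or isthmus replicate 2 (0.0672). A second, dimmer probe set of Ndufaf8 gave -0.93 against chief and 0.17 against isthmus cells.

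Ndufaf2, a relative of Ndufa12 that holds its place during assembly, had 12.24, 11.91 and 11.55 on parietal arrays, against 9.78, 11.16 and 10.34 on isthmus and 11.31, 11.21 and 10.48 on chief arrays. It was 2.78-fold above isthmus cells (adjusted p = 0.00767) and was not called against chief cells (0.90, adjusted p = 0.0823). Ndufaf4, an early factor of the Q module, had 11.66, 11.63 and 11.85 on parietal arrays, against 11.07, 11.07 and 10.74 on isthmus and 10.94, 11.38 and 10.85 on chief arrays. It rose against chief cells by 0.66 (adjusted p = 0.0497) and against isthmus cells by 0.75 (adjusted p = 0.0244). The first call ended without any 1 array other than chief replicate 2 (adjusted p of up to 0.16), and the second without any 1 parietal array or isthmus replicate 3 (up to 0.0947).

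The remaining 4 factors were called in neither comparison. Ndufaf3, the partner of Ndufaf4, had 10.09, 10.07 and 9.92 on parietal arrays, against 8.33, 9.58 and 9.07 on isthmus and 8.08, 9.35 and 8.96 on chief arrays (adjusted p = 0.0646 against chief and 0.108 against isthmus cells). Ndufaf1, a factor of membrane arm assembly, had 9.73, 9.47 and 9.37 on parietal arrays, against 8.20, 8.13 and 8.25 on isthmus and 8.0, 9.05 and 6.83 on chief arrays (adjusted p = 0.0546 and 0.0904). Parietal arrays were above all others for both genes. Ndufaf7, a mitochondrial methyltransferase, had 9.86, 10.55 and 10.16 on parietal arrays, against 9.16, 9.39 and 8.15 on isthmus and 10.17, 8.75 and 8.70 on chief arrays (adjusted p = 0.167 and 0.0673). Ndufaf6 had 7.24, 8.37 and 8.18 on parietal arrays, against 6.79, 8.73 and 7.61 on isthmus and 7.62, 8.02 and 6.16 on chief arrays, with all groups overlapping (adjusted p = 0.539 and 0.852).

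**Figure D5:**
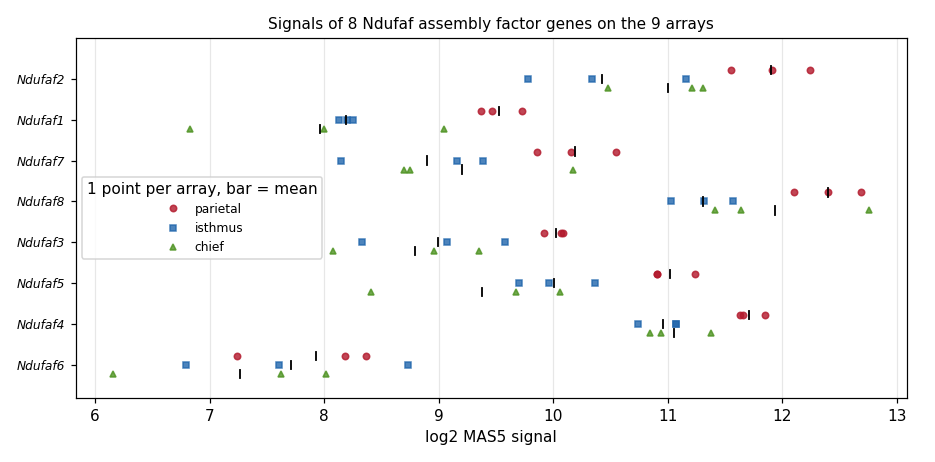
Log2 MAS5 signal (x axis) of the 8 Ndufaf assembly factor genes (rows) on the 9 arrays, with 1 point per array and a bar at each group's mean. Parietal arrays (circles) lie to the right of isthmus arrays (squares) for 7 of 8 genes and of chief arrays (triangles) for 5 of 8.

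Assembly genes of other names were counted in the same way. Of 13 tested, 3 rose against chief cells and 3 against isthmus cells, where 10.7% and 12.2% of all tested genes did, with medians of 0.89 and 0.85, and 0 fell (0 also at an unadjusted p under 0.05). Against chief cells these were Nubpl, an iron-sulfur protein needed to assemble complex I (2.76, adjusted p = 0.0108), Chchd4, an import factor of the intermembrane space (1.85, adjusted p = 0.00248), and Aifm1, which acts with Chchd4 (1.26, adjusted p = 0.0109). Against isthmus cells they were Dmac1 (1.84, adjusted p = 0.00327) and Dmac2 (1.43, adjusted p = 0.0442), which serve the distal membrane arm in human cells, and Timmdc1, a membrane-arm factor (0.83, adjusted p = 0.0354).

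Genes that make iron-sulfur clusters, the electron carriers of the N and Q modules, rose for 6 of 8 in both comparisons, Iscu, Isca1, Isca2, Nfs1, Bola3 and Glrx5, with medians of 1.34 against chief and 1.41 against isthmus cells. Iscu, the scaffold on which clusters form, was 2.90-fold above chief cells (adjusted p = 0.00145) and 3.86-fold above isthmus cells (adjusted p = 0.000237). Complex II is the other entry point of electrons into the chain. Its list joined the subunit genes Sdha, Sdhb, Sdhc and Sdhd with the assembly factors Sdhaf1 to Sdhaf4. Of these, 4 of 8 genes were higher than in chief cells and 5 of 8 higher than in isthmus cells, with medians of 0.74 and 0.81. All the subunit genes were called higher in both comparisons. Of the factors only Sdhaf4 was called, against isthmus cells (1.09, adjusted p = 0.0353). Sdhb, the iron-sulfur subunit of complex II, rose by 1.33 against chief cells (adjusted p = 0.000263) and by 1.26 against isthmus cells (adjusted p = 0.000327). Of 7 genes that mark mitochondrial mass, 2 rose against chief cells (Vdac3 and Tomm22) and 2 against isthmus cells (Vdac1 and Vdac2), with medians of 0.18 and 0.20. For all these lists, 10.7% of all tested genes rose against chief cells and 12.2% against isthmus cells, and 432 and 518 of the 1785 bright genes described above did. None of these lists held a gene called lower, also at an unadjusted p under 0.05. Between isthmus and chief cells 0 genes of the 4 lists were called. At an unadjusted p under 0.05 there were 2 higher and 1 lower of the assembly genes, 1 lower of the iron-sulfur genes, and 2 higher and 2 lower of the mass genes.

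The factors whose motifs were sought did not move together. Esrrg, a nuclear receptor of the ESRR family, had 13.81, 13.72 and 13.93 on parietal arrays, against 11.90, 12.86 and 12.43 on isthmus and 12.04, 13.00 and 11.87 on chief arrays. It rose by 1.52 against chief cells (adjusted p = 0.00166) and by 1.42 against isthmus cells (adjusted p = 0.00212). Esrrb, of the same family, had 8.70, 9.25 and 8.23 on parietal arrays, and was at or below the array median on every Mist1+ array. It passed the filter on low signals only through the parietal arrays, where it is high. Its calls (adjusted p = 0.0148 against chief and 0.00154 against isthmus cells) are therefore descriptive only. The coactivators of mitochondrial genes Ppargc1a (2.65 and 1.88, adjusted p = 0.000872 and 0.00657) and Ppargc1b (1.86 and 1.55, adjusted p = 0.000301 and 0.000854) rose against chief and isthmus cells. Nrf1, the factor of the NRF1 motif, had 6.86, 6.52 and 8.09 on parietal arrays, against 8.78, 9.0 and 9.49 on isthmus and 8.04, 9.54 and 9.94 on chief arrays. It fell by 2.02 against chief cells (adjusted p = 0.0282) and by 1.93 against isthmus cells (adjusted p = 0.03), and parietal replicate 3 overlapped with chief replicate 1. Sp1, which binds GC boxes, fell against isthmus cells (-1.10, adjusted p = 0.039). Of the 8 factors other than the coactivators, 2 rose (Esrrg, and Esrrb with the limit above) and 1 fell against chief cells. Against isthmus cells the same 2 rose and 2 fell. In these comparisons 10.7% and 12.2% of all tested genes rose and 13.5% and 15.4% fell.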

How the data were processed

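The authors deposited log2 signals made with MAS5, per the submitters' processing notes, with 1 value for each probe set on each array. The version of MAS5, its detection calls and how its signals were brought to the log scale were not stated in the labels used here. On the linear scale the trimmed mean was 496 to 497 on each array, and the lowest log2 value is 0. The platform annotation gave the gene names: of 45037 probe sets, 34945 named 1 gene, 932 several and 9160 none, and 34741 were matched to RefSeq (GRCm38.p6), which changed 0 symbols. Any 2 arrays differed by a median of at least 0.74 log2 units, so none was a copy of another.

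Groups and replicate numbers came from the sample titles. Genes were kept if their signal exceeded the median of the array on 3 or more of the 9 arrays, which left 11006. The groups' means were fitted together with limma 3.58.1 in R 4.3.3, using lmFit and contrasts.fit, then eBayes with a trend on intensity and 6 residual degrees of freedom. Tests were two-sided, with Benjamini-Hochberg adjustment over all tested genes of a comparison, and genes at an adjusted p under 0.05 were called. All adjusted p-values come from limma. The fit was also run on simulated data with independent normal noise, and the outcome is not reported here. Such data lack the brightness pattern described above. The number of arrays limits the precision.

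Values on every array are given for the core subunits, the 6 largest called differences against each Mist1+ group, all members called between isthmus and chief cells or negative in parietal cells, the member nearest to no difference, Ndufa4, Ndufa4l2, Ndufab1 and the Ndufaf genes. Values on every array were added after they had been seen for Ndufa12, Ndufa13, Ndufb1, Ndufb10, ND5, Bhlha15, Xist and the motif factors. The members and the lists were chosen with earlier results of these data known. Promoter windows are the 250 bases before the start, and 1668 of 1668 windows overlapping on opposite strands matched as reverse complements. The NRF1 motif was shortened to 8 letters after a longer form had been counted. Alternatives were quantile normalization, centring on the array median, pseudocounts of 16 and 64, other filters, the mean of a gene's probe sets, no intensity trend, only the groups compared, a replicate block, and leaving out arrays.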

Additional observations from a re-analysis of the deposited data

How the results depend on the processing

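The median difference of the subunit genes between parietal and both Mist1+ groups stayed positive under every alternative run. Against isthmus cells 29 to 33 of 35 were called under all alternatives, and 32 without any single array, and 26 of the 32 kept their call throughout. Without single arrays, 2275 to 3223 of all tested genes were called against isthmus cells in either direction. Against chief cells the count of 29 was 18 with no intensity trend and 24 to 29 without single arrays, and 14 genes kept their call throughout. Of all tested genes, 1909 to 2614 were called against chief cells in either direction without single arrays. The median against chief cells (0.81) was 0.69 after quantile normalization, 0.96 after centring and 0.93 with the mean of a gene's probe sets, and 0.76 to 0.86 without single arrays. Against isthmus cells (1.07) it was 0.86 and 1.29 after quantile normalization and centring, and 0.98 to 1.12 without single arrays. These scalings moved the median of all tested genes, -0.10 and -0.09 as reported, to 0.06 and 0.04 (quantile) and to 0.05 and 0.12 (centring).

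Between isthmus and chief cells the 3 subunit calls became 1 after quantile normalization, 0 with no intensity trend, 1 with only the groups compared, 1 without chief replicate 3 and parietal replicate 1, and 1 to 4 without single arrays, so that none of the 3 held throughout. The median of -0.23 was -0.10 after quantile normalization and -0.32 to -0.15 without single arrays. The assembly factors called against chief cells (2) were 5 after centring, 4 with the mean of probe sets, 1 each with no filter, with no intensity trend, and without chief replicate 3 and parietal replicate 1, and 1 to 4 without single arrays. Against isthmus cells (3) they were 5 after centring, 6 with only the groups compared, 1 with no intensity trend, 1 without chief replicate 3 and parietal replicate 1, and 1 to 5 without single arrays.

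Deviations of same-numbered arrays from their group means correlated at -0.04 to 0.07. Between isthmus and chief arrays the same-numbered pairs gave 0.0352, 0.0392 and 0.0734, above all other pairs of those groups (-0.0482 to 0.0096). With 3 arrays per group, these correlations cannot tell whether equal numbers mark paired samples. Xist differed between arrays of equal number. It was 13.13 on parietal replicate 1, against 4.46 on isthmus and 4.56 on chief replicate 1. On chief replicate 3 it was 11.72, against 5.65 on parietal and 4.70 on isthmus replicate 3. With a replicate block the subunit calls were 28, 32 and 2 against 29, 32 and 3, and the factor calls were 1, 3 and 0 (parietal minus chief, parietal minus isthmus, isthmus minus chief).

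Directions turned for dim or noisy members that were not called. Against chief cells Ndufb4 (-0.18) became 0.65 after quantile normalization and 0.47 without chief replicate 3 and parietal replicate 1. Without single arrays Ndufb4 ranged over -1.13 to 0.56 and Ndufb1 over -0.013 to 1.66, and Ndufaf8 became -0.23 with the mean of probe sets. Against isthmus cells the ranges without single arrays were -0.24 to 0.73 for Ndufaf6, -0.32 to 0.73 for Ndufb1 and -0.21 to 1.39 for Ndufb4. Over all genes, the 2664 calls between parietal and chief cells became 1601 without chief replicate 3 and parietal replicate 1. The 182 between isthmus and chief cells became 316 with a pseudocount of 64, 95 with no filter, 118 with the mean of probe sets, 43 with no intensity trend, 91 with only the groups compared, 50 without chief replicate 3 and parietal replicate 1, and 19 to 163 without single arrays. The cause was not tested. Signals near the array median limit Ndufb1, Ndufb4 and Ndufa4l2.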
